A study of Homo sapiens with 16 samples.

Results

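LX-2, an established line of human hepatic stellate cells with a myofibroblastic phenotype, was profiled for the histone mark H3K27ac by ChIP-seq, in which DNA bound to the marked histone is precipitated with an antibody and sequenced. One arm received vehicle (DMSO, control) and the other 50 µM OSMI-1, an inhibitor of O-GlcNAc transferase (OGT) called OGTi below, both for 24 h and with 4 H3K27ac libraries each. The other 8 of the 16 samples are input DNA and column purified chromatin, which carry no value used here. Described here are the long runs of regions that gained H3K27ac under OGTi. Regions of both directions, 3496 lost and 3623 gained on the nuclear chromosomes of hg38, were put in order along each chromosome, and a run was a series of neighbours of one direction with centres no more than 50 kb apart. Gained regions in runs of 5 or more regions were kept, which gave 476 regions in 69 runs, of 7119 regions on nuclear chromosomes and 7130 listed in all. Gained regions made up 50.9% of the listed nuclear regions, and the 476 regions were 13.1% of all gained ones. The runs were therefore chosen by the measured values themselves, namely the direction of change and the position of each listed region, and the number of regions per run, the shared direction and the short spacing are descriptions of that choice and carry no test.

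Acetylation of lysine 27 of histone H3 marks active promoters and enhancers. Enhancers that lie close together along a chromosome often belong to broad acetylated domains, which are known from genes that define the identity or state of a cell. OGT transfers O-GlcNAc from UDP-GlcNAc to serine and threonine residues of nuclear and cytoplasmic proteins, among them transcription factors and chromatin regulators, and stellate cells are the main source of the collagen-producing myofibroblasts of the fibrotic liver.

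The lists give only the chromosome, the start and the end of each region. No signal, fold change, p-value or per-library value stood behind a region here, the read depth is unknown, and the labelled cell type could not be checked against the expression of its markers. Wide peaks were cut by the authors into bins of typically 2000 bp, so that one broad acetylated domain appears as several abutting regions. Beside the number of regions, the number of separate blocks (abutting regions counted once), the span from the first to the last base and the share of that span covered by gained regions are therefore given for the runs. A region was transcription start site (TSS)-proximal when any base of it lay within 2500 bp of the 5′ end of a GENCODE gene, and otherwise TSS-distal.

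The 2 runs with the most regions lie over non-coding genes and hold microRNA genes with known roles in fibrosis and proliferation. The mature sequences are shown because these microRNA genes, and no protein-coding gene, lie in the spans. The seed (bases 2 to 8) is in capitals. The miR-29 family represses mRNAs of collagens and other matrix proteins, miR-221 and miR-222 repress the cell cycle inhibitor p27, and miR-137 is best known from neurons. The sequences are from RefSeq (GRCh38.p14), and the mature sequences lie on the minus strand at chr7:130876748-130876769 (miR-29a-3p), chr7:130877467-130877489 (miR-29b-3p), chrX:45746180-45746202 (miR-221-3p), chrX:45747036-45747056 (miR-222-3p) and chr1:98046091-98046113 (miR-137-3p).
hsa-miR-29a-3p: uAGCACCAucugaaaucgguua
hsa-miR-29b-3p: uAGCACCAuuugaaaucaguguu
hsa-miR-221-3p: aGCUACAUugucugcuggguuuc
hsa-miR-222-3p: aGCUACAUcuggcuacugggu
hsa-miR-137-3p: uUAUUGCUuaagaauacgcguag
The miR-29 pair shares the seed AGCACCA, and miR-221 and miR-222 share GCUACAU. MIR29A, MIR29B1, MIR221 and MIR222 lay within the span of their run but not inside a gained region. MIR29A and MIR29B1 were 12869 and 12140 bp from the nearest gained region of their run, and MIR221 and MIR222 were 9213 and 8355 bp away. MIR137 and its neighbour MIR2682, by contrast, lay inside a gained region. In all, 12 microRNA genes fell within the span of a long run and 3 of them, MIR137, MIR2682 and MIR1469, inside a gained region.

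Consensus matches of 2 kinds within the longer runs are shown with the 20 bases on each side, on the plus strand of hg38 and with the match in capitals. The first is the composite element of ATF4 and C/EBP factors (TGATGCAA on either strand), through which ATF4 drives the amino acid response. It was found in 2 regions of the LINC-PINT run, 1 of the NR2F2 run, 2 of the VEPH1 run and 2 of the LINC00973 run, and the first match of each is given. Runs were taken by falling number of regions, and those without the composite were passed over. These were the MIR222HG, ADAMTS12, BCL2L1, TRAF3IP1, PDGFC and PHLDA1 runs. In all, 26 of the 69 runs held it. The second is the AP-1 site (TGANTCA, its own reverse complement), bound by FOS and JUN proteins.
LINC-PINT run, ATF4-C/EBP composite, chr7:130919902-130919949: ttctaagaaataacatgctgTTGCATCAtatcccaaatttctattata
NR2F2 run, ATF4-C/EBP composite, chr15:96329806-96329853: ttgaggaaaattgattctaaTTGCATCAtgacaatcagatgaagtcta
VEPH1 run, ATF4-C/EBP composite, chr3:157311806-157311853: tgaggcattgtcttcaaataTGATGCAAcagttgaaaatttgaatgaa
LINC00973 run, ATF4-C/EBP composite, chr3:98962916-98962963: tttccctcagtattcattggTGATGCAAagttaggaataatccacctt
LINC-PINT run, AP-1, chr7:130853778-130853824: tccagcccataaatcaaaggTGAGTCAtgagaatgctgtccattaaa
MIR222HG run, AP-1, chrX:45712976-45713022: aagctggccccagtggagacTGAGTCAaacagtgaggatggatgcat
On the plus strand the composite reads in reverse complement in the LINC-PINT and NR2F2 runs and forward in the VEPH1 and LINC00973 runs. A match is a description of the letters and no sign that a factor was bound.

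Of 35116 RefSeq promoter windows (250 bases before to 50 after a start), 96 overlapped a gained region of a long run. Shown are 3 that hold matches of interest, for LINC-PINT, a non-coding RNA induced by p53, for BACH1, a repressor of antioxidant genes that pairs with small MAF proteins, and for MAFF, one of these small MAF proteins. Each window belongs to 1 RefSeq start, a gene can have several, and which start of LINC-PINT answers to p53 was not examined. Capitals mark AP-1 sites in LINC-PINT and BACH1, the cyclic AMP response element (CRE, TGACGTCA) in MAFF, and SP/KLF boxes (GGGCGGGG on either strand) in BACH1 and MAFF.
LINC-PINT, minus strand, chr7:130913261-130913560: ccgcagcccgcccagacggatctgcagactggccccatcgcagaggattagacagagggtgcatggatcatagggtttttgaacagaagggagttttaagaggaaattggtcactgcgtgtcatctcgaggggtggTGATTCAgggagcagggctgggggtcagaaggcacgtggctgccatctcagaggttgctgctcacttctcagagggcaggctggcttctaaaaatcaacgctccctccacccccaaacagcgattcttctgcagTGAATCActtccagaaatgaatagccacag
BACH1, plus strand, chr21:29298672-29298971: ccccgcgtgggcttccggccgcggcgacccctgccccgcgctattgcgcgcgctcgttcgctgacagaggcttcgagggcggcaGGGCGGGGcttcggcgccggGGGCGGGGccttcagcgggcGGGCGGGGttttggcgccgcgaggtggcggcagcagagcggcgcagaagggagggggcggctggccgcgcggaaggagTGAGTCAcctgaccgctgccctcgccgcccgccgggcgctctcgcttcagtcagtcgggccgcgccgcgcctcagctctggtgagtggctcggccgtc
MAFF, plus strand, chr22:38201744-38202043: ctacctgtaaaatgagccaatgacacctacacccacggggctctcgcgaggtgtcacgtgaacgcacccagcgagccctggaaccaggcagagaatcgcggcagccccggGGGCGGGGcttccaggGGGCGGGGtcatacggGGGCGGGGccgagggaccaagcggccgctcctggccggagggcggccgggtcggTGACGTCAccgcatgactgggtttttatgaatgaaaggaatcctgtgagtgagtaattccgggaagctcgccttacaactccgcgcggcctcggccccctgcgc
Matches were frequent in promoters at large, so that AP-1 was present in 7.71% of all windows and in 12 of the 96 (12.5%). SP/KLF boxes were present in 22.8% of all windows and in 23 of the 96 (24.0%). The ATF4-C/EBP composite was present in 0.866% of all windows and in 2 of the 96 (2.08%), those of the non-coding genes LURAP1L-AS1 and DLGAP1-AS6. The CRE was present in 1.85% of all windows and in 1 of the 96, that of MAFF. The median CpG observed/expected ratio was 0.828 in the 96 windows and 0.579 in all windows. The 35116 windows were not chosen for acetylation in LX-2, and some of the 96 overlap one another. What part this had in these values was not tested.

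The 69 long runs lay on 20 chromosomes, with 8 on chromosome 12, 7 on chromosome 2 and 6 on chromosome 3. They held 5 to 20 regions (median 6) and spanned 8.56 to 150.6 kb (median 56.2 kb). Gained regions covered 4.22% to 100% of the span (median 22.7%), and the runs together covered 878 kb of 4238 kb of sequence. Runs of exactly 5 regions were the most frequent (31), 10 runs held 6 regions, 10 held 7 and 18 held 8 or more, with 191 regions among the last. Of the 407 neighbouring pairs within runs, 188 (46.2%) abutted with no base between, and 60 of the 69 runs had at least 1 such pair. Counted as blocks, the runs held 1 to 8 blocks (median 4). The plot of regions against span sets these runs beside the 97 long runs of lost regions, which held 5 to 17 regions (median 6), spanned 12.5 to 194.3 kb (median 62.0 kb) and were covered to 19.3% (median).

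**Figure D1:**
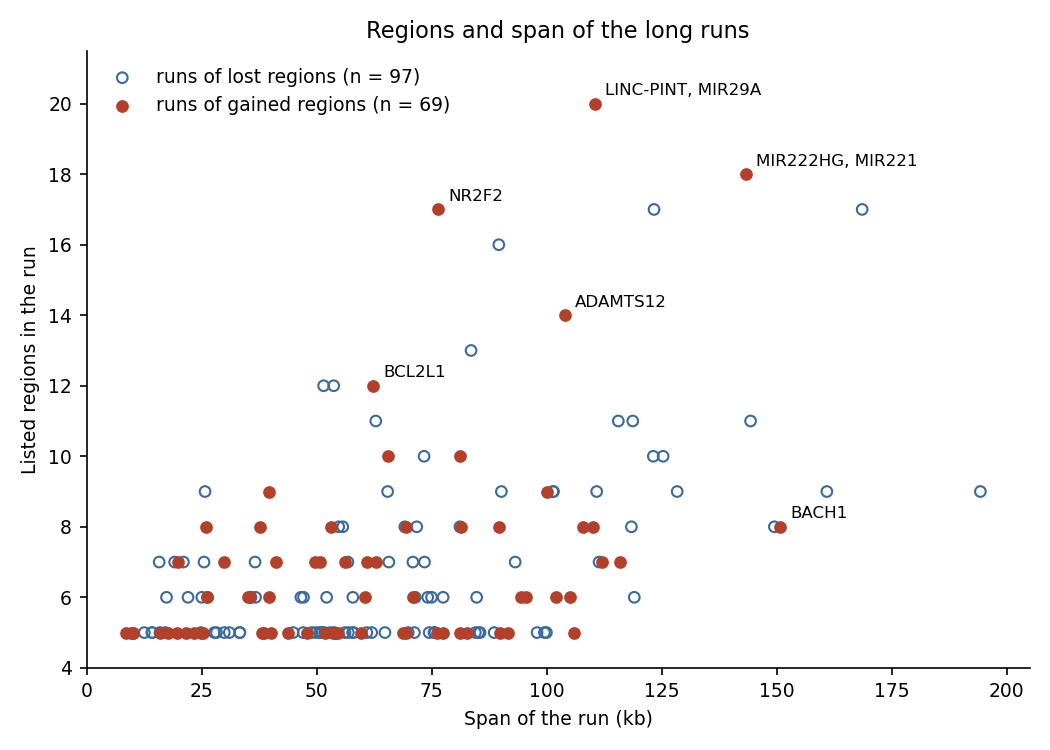
Number of listed regions in each long run (vertical axis) against the span of the run in kb (horizontal axis), for 69 runs of gained regions (filled red points) and 97 runs of lost regions (open blue points). Each point is 1 run. The LINC-PINT and MIR222HG runs, with 20 and 18 regions, and the NR2F2 run with 17, stand at the top, and the BACH1 run is the widest gained run at 150.6 kb.

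By their position the runs fell into 3 kinds. In 32 runs the span held the 5′ end of a protein-coding gene, 25 lay over a protein-coding gene with no such end in the span, and 12 lay over no protein-coding gene. The first kind spanned a median of 69.1 kb and was covered to 18.1%, the second 49.6 kb and 25.6%, and the third 41.0 kb and 30.4%. Of the 57 runs over protein-coding genes, 39 lay over exactly 1, and 3 over 4 or more. The plot of coverage sets the covered share of every run against its span.

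**Figure D2:**
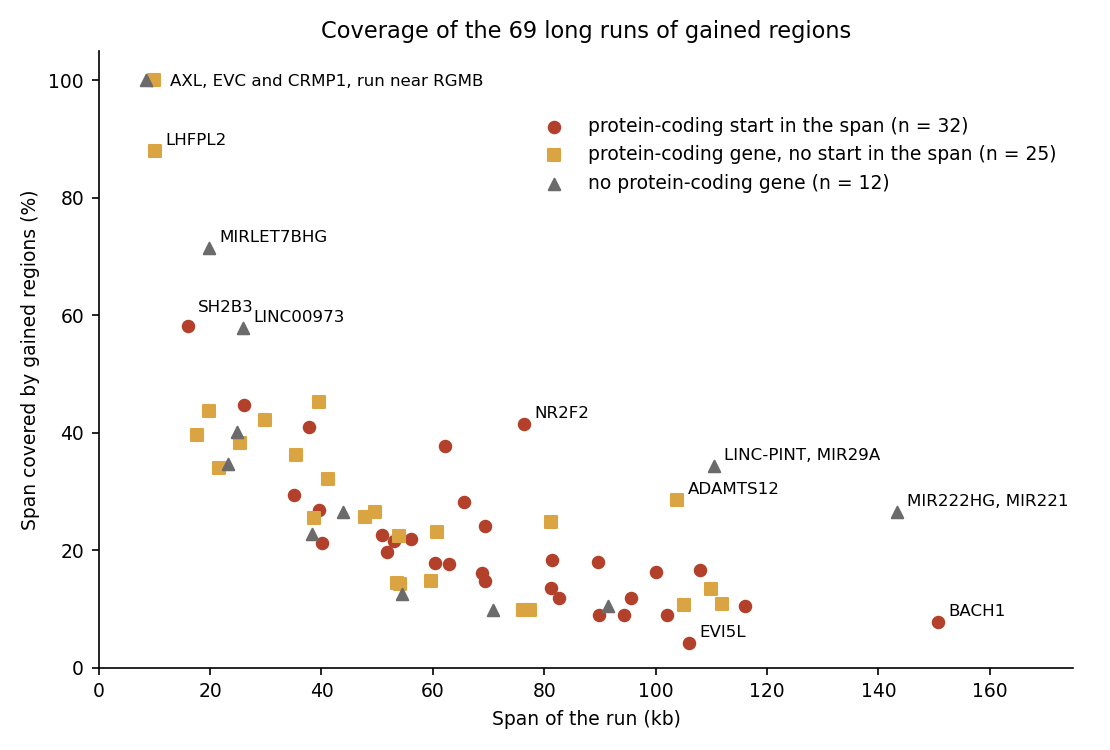
Share of each run's span covered by gained regions in percent (vertical axis) against its span in kb (horizontal axis), for the 69 long gained runs, with the symbol giving the kind of run. The 3 runs at 100% overlap in the upper left corner, the NR2F2, LINC-PINT and MIR222HG runs combine a wide span with 41.5%, 34.3% and 26.4% coverage, and the run over EVI5L and MAP2K7 is the sparsest at 4.22%.

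In 3 runs all regions formed 1 unbroken block. The densest lay in an intergenic stretch (chr5:98307269-98315832) 452.8 kb from RGMB, the nearest protein-coding gene, where 5 abutting regions filled 8.56 kb at 5.84 regions per 10 kb. The run over AXL, the receptor tyrosine kinase for GAS6, filled 9.53 kb with 5 regions (chr19:41218446-41227974), and 4 of them were TSS-proximal. The third filled 10.0 kb in introns of EVC, a ciliary protein of Hedgehog signalling, and of the overlapping CRMP1, a cytosolic phosphoprotein of semaphorin signalling (chr4:5750737-5760758), with 5 regions of 2000 to 2022 bp. At the other end, 5 regions were spread over 106 kb around MAP2K7, a kinase that activates JNK, and 7 further protein-coding genes (chr19:7837774-7943727), with 27.8 kb between neighbouring centres (median). The narrowest region of that run was 239 bp wide and the widest 1896 bp, and it had no abutting pair.

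**Figure D3:**
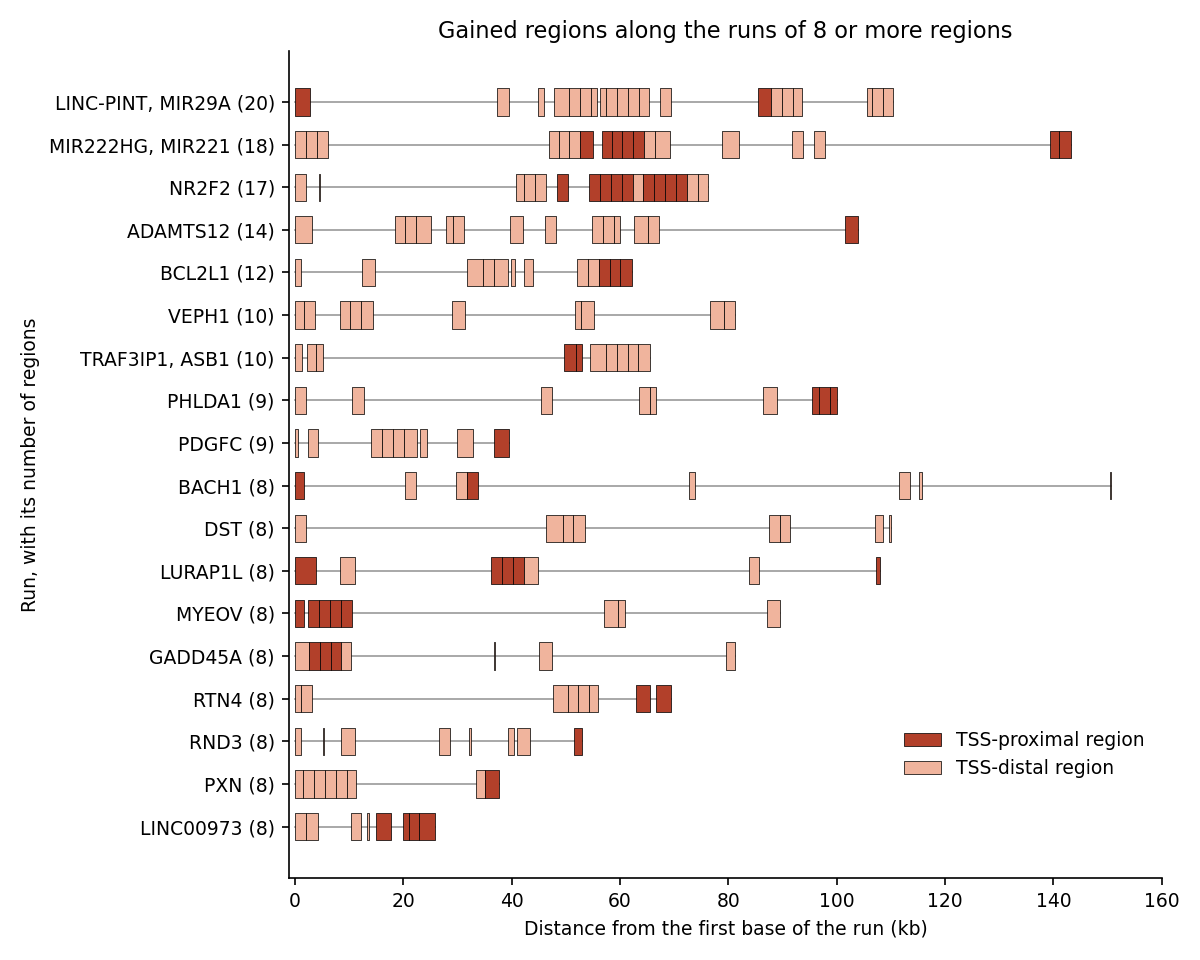
The 18 runs of 8 or more regions drawn to scale, with the distance from the first base of the run in kb (horizontal axis) and 1 line per run, named by a gene in it with the number of regions in brackets. Each box is 1 gained region, dark when TSS-proximal and light when TSS-distal. Abutting boxes form dense blocks in the LINC-PINT, NR2F2 and PXN runs, whereas no box of the RND3 run and a single pair of the BACH1 run touch.

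The runs over non-coding genes held the longest of all. LINC-PINT, the p53-induced transcript named above, and the MIR29A and MIR29B1 genes lay in a run of 20 regions over 110.4 kb (chr7:130852402-130962816), of which 34.3% was covered, in 8 blocks. Within it, 12 pairs abutted, 14 regions were intronic, 4 exonic and 2 TSS-proximal, and the largest distance between neighbouring centres was 37.0 kb. A stretch of 9 regions between 130900325 and 130917852 had a single short break, and after it exactly 2000 bp, the width of 1 bin, were in neither list. The nearest 5′ end of a protein-coding gene, that of KLF14, was 118.2 kb away. MIR222HG, the host transcript of miR-221 and miR-222, lay in a run of 18 regions over 143 kb (chrX:45708648-45851919) with 7 blocks and 26.4% coverage. Its regions were 7 TSS-proximal, 3 intronic and 8 intergenic ones. The last 2 lay at LINC02595, and DIPK2B was the nearest protein-coding gene at 507.7 kb. LINC00973, an intergenic RNA, lay in a run of 8 regions (chr3:98961118-98986975) that covered 57.8% of 25.9 kb. MIRLET7BHG, the host transcript of let-7 family members, carried 7 regions over 71.5% of 19.8 kb (chr22:46069905-46089702), with 60.8 kb to the start of PPARA.

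Smaller runs over non-coding genes held 5 or 6 regions. The host transcript of miR-137, MIR137HG, carried 5 regions over 43.8 kb (chr1:98003050-98046832), with a median GC content of 32.1%, against 42.5% over all 476 regions. TMEM44-AS1 had 5 regions in 23.3 kb (chr3:194561180-194584488, 34.6% covered). ZFPM2-AS1, antisense to the zinc finger cofactor gene ZFPM2, had 6 regions over 70.8 kb (chr8:106010807-106081648, 9.83% covered). LINC02612 had 5 regions over 91.5 kb (chr2:150591321-150682849, 10.5% covered), next to the RND3 run described below. Beside the run near RGMB, 3 more runs of 5 regions held no named gene. The first came within 7.21 kb of the start of COL6A3, which encodes a chain of collagen VI, and spanned 54.5 kb (chr2:237421537-237476072, 12.6% covered). Another on chromosome 9 spanned 24.8 kb (chr9:115667931-115692714, 40.1% covered), 461.1 kb from PAPPA. The last, on chromosome 12, spanned 38.2 kb (chr12:75623119-75661339, 22.7% covered), 111.5 kb from KRR1, and 3 of its 5 regions held the ATF4-C/EBP composite.

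Genes of transcription factors and chromatin proteins named 9 runs. NR2F2 (COUP-TFII), a nuclear receptor of mesenchymal cells, had 17 regions over 76.3 kb (chr15:96274690-96351021), with 12 abutting pairs and 41.5% coverage. The 5′ end that GENCODE gives NR2F2 fell into a gap of exactly 4000 bp in neither list, whereas 2 RefSeq promoter windows of the gene overlapped gained regions. The median CpG observed/expected ratio of its regions was 0.418, and 9 of the 17 were TSS-proximal. BACH1 had the widest run, 8 regions in 7 blocks over 151 kb (chr21:29186763-29337399), covered to 7.74%, with centres a median of 20.6 kb apart. MAFF lay in a run of 5 regions over 40.1 kb (chr22:38201388-38241445) together with the phospholipase gene PLA2G6 and with TMEM184B. FOSL1, which encodes the AP-1 subunit FRA-1, lay in a gene-dense run of 7 regions over 116 kb (chr11:65887626-66003616) with the ends of 9 protein-coding genes, and 6 of the 7 regions were near one of them. FOXL1, a forkhead factor of mesenchymal cells, had 6 separate regions over 105.2 kb (chr16:86576719-86681885), all 6 with an AP-1 match. Over their whole width, 57.6% of the 476 regions and 55.1% of all listed regions held such a match. IRF2BP2, a transcriptional corepressor, had 7 regions over 56.2 kb (chr1:234602444-234658598), all of them TSS-proximal to a coding or non-coding gene. HMGA1, an architectural chromatin protein, had 6 regions in 26.1 kb (chr6:34223535-34249622, 44.7% covered) together with SMIM29. E2F7, a repressive member of the E2F family, had 7 regions over 62.9 kb (chr12:77060235-77123181), 5 of them intergenic. TOX2, an HMG-box factor, had 5 intronic regions over 38.6 kb (chr20:43937846-43976425), each with an AP-1 match.

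Genes of cell survival and the stress response named a further group. BCL2L1, which encodes the anti-apoptotic BCL-XL, had 12 regions in 6 blocks over 62.2 kb (chr20:31661833-31724040), 8 of them intronic and 3 TSS-proximal, and 37.7% of the span was covered. The last 5 of these abutted one another up to the start of the gene. GADD45A, a growth arrest and DNA damage gene, lay with part of GNG12, a G protein subunit, in a run of 8 regions over 81.3 kb (chr1:67679740-67761073, 18.3% covered). DDIT4 (REDD1), an inhibitor of mTORC1, lay in a run of 6 regions over 95.5 kb (chr10:72259599-72355102) that reached the co-chaperone gene DNAJB12. Its regions were 4 intergenic and 2 TSS-proximal ones, with a median GC content of 58.9%. TRIB3, a pseudokinase and target of ATF4, lay with RBCK1, a subunit of the linear ubiquitin ligase complex, in a run of 6 regions over 39.6 kb (chr20:369729-409300), of which 2 held the ATF4-C/EBP composite. PHLDA1, a pleckstrin homology-like domain protein, had 9 regions in 6 blocks over 100.1 kb (chr12:75933125-76033258, 16.4% covered), with 3 at its start. This run followed the run near KRR1 after 271.8 kb, with 3 gained and no lost regions between. Around RTEL1, a telomere helicase, 5 regions lay over 82.6 kb (chr20:63626058-63708630) with the starts of 7 protein-coding genes, and their median CpG ratio of 0.708 was the highest of the 69 runs.

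Among genes of the matrix, secreted factors and receptors, ADAMTS12, a secreted metalloproteinase, had the most regions of any run that lay wholly in 1 protein-coding gene. It held 14 regions in 8 blocks over 104 kb (chr5:33787303-33891213, 28.6% covered), 13 of them intronic and the last TSS-proximal. COL5A2, a chain of collagen V, had 7 regions over 41.2 kb of its body (chr2:189103345-189144540, 32.1% covered), 80.8 kb from its start. PDGFC, a ligand of PDGF receptors, had 9 regions in 6 blocks over 39.6 kb (chr4:156930914-156970491, 45.2% covered), 8 of them intronic. GREM1, an antagonist of BMP, lay with SCG5 in a run of 5 regions over 51.9 kb (chr15:32670039-32721897). PTX3, a secreted pentraxin of innate immunity, and part of VEPH1, a pleckstrin homology domain protein, shared a run of 6 regions over 94.4 kb (chr3:157436289-157530701, 8.99% covered). A second run in VEPH1, with 10 intronic regions over 81.2 kb (chr3:157281400-157362641, 24.9% covered), lay 73.6 kb away with no listed region between, and 9 of its 10 regions held an AP-1 match. CXCL2, a chemokine for neutrophils, and MTHFD2L, a mitochondrial folate enzyme, shared a run of 6 regions over 102 kb (chr4:74056542-74158641, 9.04% covered). NRP1, a co-receptor for VEGF and semaphorins, had 5 regions over 81.2 kb (chr10:33332608-33413782), 2 near its start and 3 intergenic upstream of it. PVR (CD155), an adhesion receptor, lay with IGSF23 in a run of 5 separate regions over 69.3 kb (chr19:44588174-44657489). EXT1, a polymerase of heparan sulphate, had 5 intronic regions in 21.7 kb (chr8:117845934-117867609), 244.2 kb from its start.

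Genes of the cytoskeleton, adhesion, endocytosis and cell division named 13 runs. RND3, a small GTPase that opposes actomyosin contraction, had 8 regions over 53.03 kb (chr2:150486530-150539563, 21.6% covered), none of which abutted another. The LINC02612 run began 51.8 kb farther on (53.3 kb between centres) with no listed region between, just past the limit of 50 kb. DST, a linker of cytoskeletal filaments, had 8 regions over 110.0 kb (chr6:56642072-56752060, 13.4% covered), 7 intronic and 1 exonic, and none TSS-proximal. PXN, the focal adhesion protein paxillin, had 8 regions in 2 blocks over 37.8 kb (chr12:120227996-120265775, 41.0% covered). ARHGEF2, a RhoA exchange factor, and RXFP4 shared a run of 7 regions over 50.8 kb (chr1:155940181-155990994). DAB2, an endocytic adaptor, had 7 regions in 29.9 kb (chr5:39393921-39423842, 42.2% covered), all in its body. SPIRE1, an actin nucleator, and PSMG2, a proteasome assembly chaperone, shared 6 separate regions over 60.4 kb (chr18:12598447-12658884). DOCK2, a Rac exchange factor, and INSYN2B shared 6 regions over 34.997 kb (chr5:169945794-169980790). PPFIBP1, a liprin, had 7 regions over 112 kb (chr12:27523516-27635470, 10.9% covered). DNMBP, a Cdc42 exchange factor, had 5 separate regions over 77.5 kb (chr10:99931688-100009194, 9.77% covered). NAV2, of the neuron navigator family, had 5 regions over 59.6 kb (chr11:19679444-19739056). CDH13, the GPI-anchored T-cadherin, had 5 intronic regions over 47.9 kb (chr16:82655129-82703032), none narrower than 2000 bp. NEK6, a mitotic kinase, had 5 regions in 25.4 kb (chr9:124261976-124287334, 38.3% covered), and CUBN, the endocytic receptor cubilin, had 5 intronic regions over 53.9 kb (chr10:17023002-17076878), each with an AP-1 match.

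Enzymes and other proteins named the remaining runs. HK2, the hexokinase that starts glycolysis in proliferating cells, had 1 region at its 3′ end and 4 beyond it, over 54.1 kb (chr2:74892035-74946111, 14.2% covered). GBE1, the glycogen branching enzyme, had 6 regions in 35.4 kb (chr3:81725658-81761099, 36.2% covered), and the next listed region, lost on both sides, was 5226 kb to the left and 5033 kb to the right. NT5E (CD73), which forms adenosine at the cell surface, had 5 intronic regions in 17.6 kb (chr6:85455765-85473388). PDE1C, a cyclic nucleotide phosphodiesterase, had 5 regions in 19.7 kb (chr7:31935944-31955667, 43.8% covered). LIPA, the lysosomal acid lipase, and the interferon-induced IFIT2 and IFIT3 shared 5 separate regions over 68.9 kb (chr10:89260538-89329391). RTN4 (Nogo), which shapes the endoplasmic reticulum, had 8 regions over 69.4 kb (chr2:55047995-55117436, 24.1% covered). The intraflagellar transport gene TRAF3IP1 and its neighbour ASB1 shared 10 regions in 4 blocks over 65.6 kb (chr2:238376272-238441824, 28.3% covered). IGF2BP2, an mRNA-binding protein, had 7 regions over 49.6 kb (chr3:185687940-185737492), 6 intronic, 1 exonic and none TSS-proximal. LURAP1L had 8 regions over 108 kb (chr9:12774931-12882901), among them the widest of all at 3873 bp. MYEOV had 8 regions over 89.6 kb (chr11:69293673-69383273), and 1 of them held 5 AP-1 matches, a number reached in 1 other region, in the LINC00973 run.

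The last 6 of these were as follows. LHFPL2, a tetraspan membrane protein, had 5 intronic regions that filled 88.0% of 10.0 kb (chr5:78525615-78535656). SH2B3 (LNK), an adaptor that restrains cytokine signalling, had 5 regions over 58.1% of 16.0 kb (chr12:111396594-111412595). DLGAP1, a scaffold protein best known from synapses, and its antisense genes DLGAP1-AS1 and DLGAP1-AS2 had 7 regions over 60.8 kb (chr18:3592949-3653787), 6 of them near the start of a non-coding gene. DDX10, an RNA helicase, had 5 separate regions over 76.2 kb at its 3′ end (chr11:108872435-108948612). C2CD5, a C2 domain protein of glucose transporter trafficking, had 5 intronic regions over 53.5 kb (chr12:22476517-22530032). CDK17, a cyclin-dependent kinase, had 5 regions over 89.8 kb (chr12:96398440-96488255, 8.93% covered), 2 of them at its start and 1 at that of CFAP54.

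The widths and gaps of the regions carried the mark of the bins. Of the 476 regions, 141 (29.6%) were exactly 2000 bp wide, with a range of 200 to 3873 bp, 21 regions under 500 bp and 9 over 3000 bp. Where neighbours did not abut, which held for 219 pairs, the gap had a median of 10912 bp, 15 gaps were under 1000 bp and 72 over 20000 bp. In 8 cases, in 7 runs, the gap was a whole multiple of 2000 bp, and 7 of these were exactly 1 bin. Such gaps, in the MIR137HG, COL5A2, LINC-PINT, DNMBP, NR2F2, MIRLET7BHG and MIR222HG runs, are stretches that entered neither list, and no value is at hand that would show how close they came to the threshold.

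Next, the regions of the long gained runs were set beside the other 3147 gained regions and the 676 regions of the long lost runs. These are descriptions over regions, which within a run share a locus, so that no test was run and the Wilson 95% intervals cover counting error only. TSS-proximal regions made up 29.2% of the regions in long gained runs (interval 25.3% to 33.4%), 42.3% of the other gained regions (40.5% to 43.997%) and 13.0% of the long lost runs (10.7% to 15.8%). For protein-coding starts alone, the shares were 14.5%, 33.5% and 5.47%. The long gained runs thus stood between both other sets. Of their TSS-proximal regions, 69 were near the 5′ end of a protein-coding gene and 70 near those of other GENCODE genes only. Further promoters of protein-coding genes were not counted as such. RefSeq promoter windows of ARHGEF2 and BACH1 overlapped gained regions, yet ARHGEF2 had no GENCODE 5′ end in its run. No region of the BACH1 run was near a protein-coding 5′ end. Distal intronic regions were 55.7%, 41.2% and 53.8% of the 3 sets, and intergenic ones 12.6%, 12.6% and 29.9%. The median distance from the centre of a region to the nearest protein-coding start was 39141 bp in the long gained runs, 19653 bp in the other gained regions and 86763.5 bp in the long lost runs. At the level of runs, 53 of the 69 gained runs (76.8%) had at least 1 TSS-proximal region, against 49 of the 97 lost runs (50.5%). The 16 gained runs without one were those near RGMB, COL6A3, PAPPA and KRR1, and those over IGF2BP2, EVC and CRMP1, LHFPL2, DST, NT5E, EXT1, CUBN, DDX10, C2CD5, CDH13, TOX2 and the 10-region run of VEPH1.

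**Figure D4:**
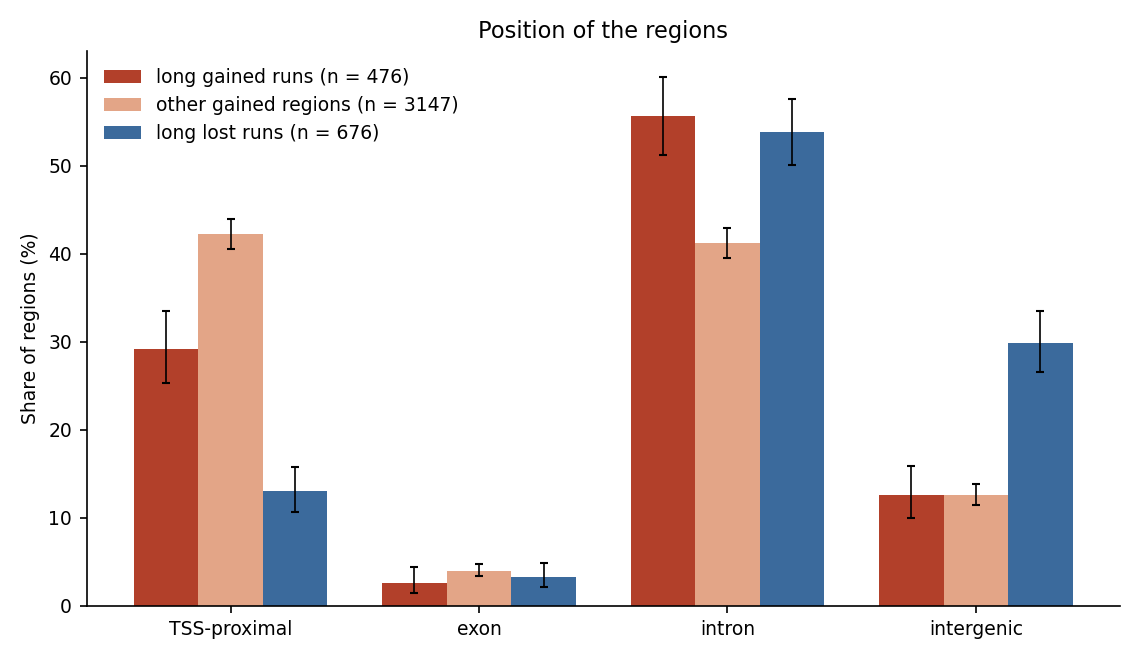
Share of regions in percent (vertical axis) that were TSS-proximal or whose centre otherwise lay in an exon, an intron or between genes, for 476 regions of long gained runs, 3147 other gained regions and 676 regions of long lost runs. Bars are shares and whiskers are Wilson 95% intervals, for counting error only. The TSS-proximal bar of the long gained runs stands at 29.2%, between 42.3% and 13.0%.

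Base composition was read from hg38. The median GC content was 42.5% in the long gained runs, 46.5% in the other gained regions and 44.6% in the long lost runs. The median CpG observed/expected ratio was 0.212, 0.256 and 0.180. Among TSS-distal regions alone the ratios were close, at 0.184, 0.189 and 0.176, whereas among TSS-proximal regions they were 0.314, 0.713 and 0.212. A ratio over 0.6, which is 1 of the usual criteria of a CpG island, was found in 45 of the 476 regions (9.45%), of which 39 were TSS-proximal, and 30 of the 69 runs held at least 1. The upper quartile of the ratio was 0.316 in the long gained runs and 0.684 in the other gained regions. It was 0.229 in the long lost runs and 0.350 over all listed regions. The ratio was taken over the whole region with no criterion of GC content or length, so that islands were not called. The RTEL1 and FOSL1 runs had the highest median ratios, 0.708 and 0.645, and both lie among many protein-coding starts.

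Consensus motifs were counted in the central 1000 bp, so that sets of different width could be set side by side. The centre of a bin cut from a wide peak is set by the cut, and the window runs past regions narrower than 1000 bp. What part this had in the shares was not tested. Searched on both strands were the ATF4-C/EBP composite, AP-1 and CRE elements, the SP/KLF box, the TEAD core (CATTCC), the ETS core (CCGGAAGT), NFY (CCAAT) and, by name, the NRF1 core and the SRF element. No AP-1 match lies within a CRE. AP-1 was found in 42.2% of the regions in long gained runs (interval 37.9% to 46.7%), 47.4% of the other gained regions, 42.3% of the long lost runs and 45.8% of all 7119 listed regions. Among TSS-distal regions the shares were 48.4% (43.1% to 53.7%), 62.0% (59.7% to 64.2%) and 44.05% (40.1% to 48.1%), so that the long gained runs stood closer to the long lost runs than to the other gained regions. The ATF4-C/EBP composite was found in 5.04% of the regions in long gained runs (3.41% to 7.39%), 8.64% of the other gained regions (7.71% to 9.68%), 2.66% of the long lost runs and 5.24% of all listed regions. Over the whole width of the regions, 38 of the 476 (7.98%) held it, in 26 of the 69 runs (37.7%). The whole-width share was 10.5% in the other gained regions, 5.47% in the long lost runs and 7.30% of all listed regions. Of the 97 long lost runs, 33 (34.0%) held it. Of the 26 gained runs, 11 had it in 2 or more regions. Of the 38 regions, 25 also held an AP-1 site, which was present in 274 of all 476 (57.6%).

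Promoter elements and other motifs were read in the same way. The TEAD core, bound by partners of YAP, was found in 50.4%, 45.2% and 56.8% of the 3 sets and in 53.1% of all listed regions. SP/KLF boxes were found in 9.66%, 20.7% and 3.99% (14.7% of all listed regions), ETS cores in 2.52%, 6.86% and 1.04% (3.54%) and NRF1 cores in 1.47%, 6.67% and 0% (3.30%). Among TSS-distal regions alone the sets lay closer together, with SP/KLF boxes in 5.04%, 4.57% and 3.23%, ETS cores in 1.19%, 1.49% and 1.02% and NRF1 cores in 0.297%, 0.605% and 0%. For these 3 motifs the order of the sets over all regions was that of the TSS-proximal shares given above, and a link was not tested. The ATF4-C/EBP composite was found in 5.04%, 10.6% and 2.72% of TSS-distal regions. NFY was found in 72.7%, 72.5% and 76.3% (72.7%), and CRE in 0.840%, 1.91% and 0.444% (1.26%). The SRF element, which drives genes of the contractile cytoskeleton, was found in 4.41%, 4.39% and 8.43% (6.995%). When the whole width was read, AP-1 matches were found in nearly all long runs of both directions. They were present in 68 of the 69 gained runs, the run around MAP2K7 being the exception, and in 95 of the 97 long lost runs (97.9%). The number of runs with a match therefore did not set the gained runs apart. By region, the whole-width share was 57.6% in the long gained runs and 55.1% over all listed regions. Every region held an AP-1 match in 4 gained runs, those near RGMB and over CUBN, FOXL1 and TOX2.

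**Figure D5:**
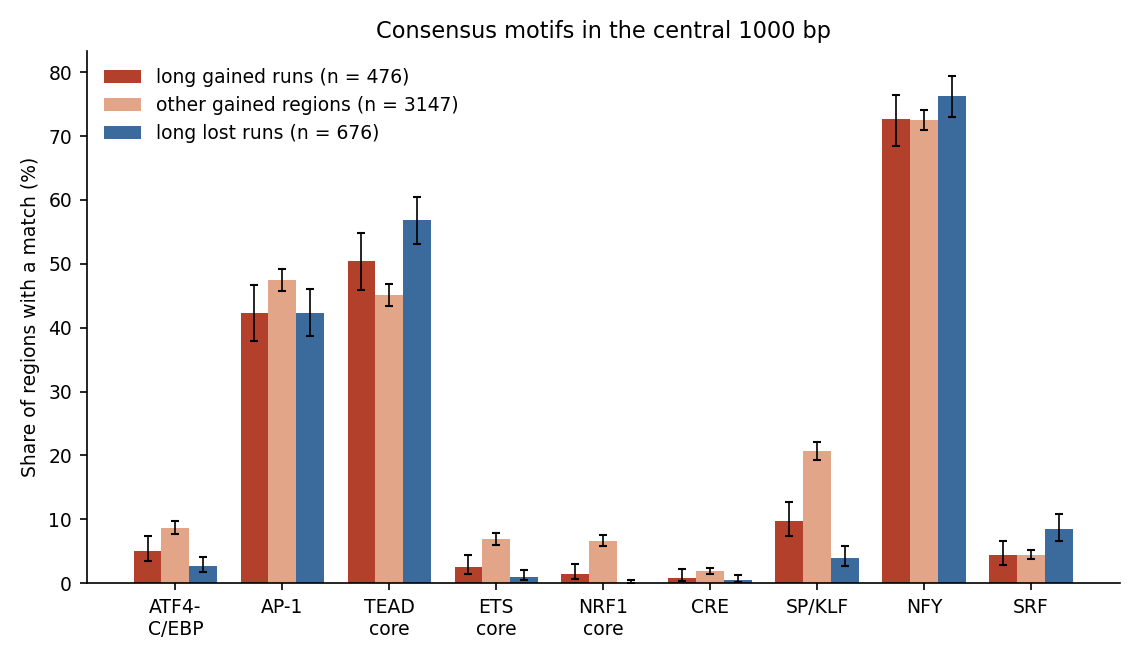
Share of regions in percent (vertical axis) with at least 1 consensus match in the central 1000 bp, for 9 motifs and the same 3 sets of regions. Bars are shares and whiskers are Wilson 95% intervals, for counting error only. For the ATF4-C/EBP composite, the SP/KLF box, the ETS core and the NRF1 core the long gained runs stand between the other gained regions and the long lost runs. The sets differ in TSS-proximal share. Among TSS-distal regions alone SP/KLF boxes were found in 5.04%, 4.57% and 3.23%. The ATF4-C/EBP composite was found in 5.04% (interval 3.17% to 7.93%), 10.6% (9.24% to 12.1%) and 2.72% (1.68% to 4.37%) of them. What part TSS position had in these shares was not tested.

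By the rule for forming runs, a gained region that came next after an end was always more than 50 kb away between centres. The distances to gained regions below are therefore set in part by that rule. Of the 138 ends, the next listed region was gained at 80 (median distance 239.0 kb) and lost at 57 (median 244.3 kb), and at 1 end, that of the TRIB3 run, none followed before the end of the chromosome. A lost region lay within 50 kb of the end in 5 cases and within 100 kb in 12. The 5 close ones were beside the runs over NEK6 (10.9 kb), NT5E (19.1 kb), PDGFC (30.03 kb), MIR137HG (40.0 kb) and NR2F2 (41.3 kb), counted between centres. At these loci, therefore, gain and loss were listed side by side. Of the 194 ends of the long lost runs, 17 had a gained region within 50 kb.

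For the gene lists, a gene was counted when its body overlapped the span of a long gained run, which held for 95 of 20007 protein-coding genes (0.475%). Long lost runs, counted the same way, overlapped 90 (0.450%). Of 22 AP-1 and CREB/ATF factors, FOSL1 and MAFF were counted, and of 39 genes of the ATF4 amino acid response, DDIT4 and TRIB3. BCL2L1 was the 1 counted of 16 genes of the BCL2 family, and GADD45A the 1 of 23 genes of cell cycle arrest and p53. Of 59 collagens and matrix proteins, ADAMTS12 and COL5A2 were counted in gained runs, and COL4A2, LOXL1 and TNC in long lost runs. When counted by a 5′ end within 50 kb of a run, ADAMTS12 and COL6A3 went with gained runs. COL18A1, COL1A2, COL4A1, COL4A2, LOXL1 and TNC went with long lost runs by that measure. Over all protein-coding genes it gave 122 (0.610%) for gained and 99 (0.495%) for lost runs. The other lists here are counted by gene body. Of 41 contractile and adhesion genes, DST and PXN were counted in gained runs. Of 60 growth factor ligands and receptors, AXL and PDGFC were counted in gained runs. Of 47 transcription factors of stellate and mesenchymal cells, NR2F2 was in a gained run and RUNX2 in a lost one. The 50 fibrosis-related microRNA genes gave MIR29A, MIR29B1, MIR221 and MIR222 in gained runs, and MIR181A2 and MIR181B2 in lost ones. The 4 in gained runs came from 2 runs, and of all 1877 microRNA genes 12 (0.639%) lay in long gained runs and 8 (0.426%) in long lost runs. None of 27 antioxidant targets of NRF2, 8 genes of O-GlcNAc cycling and 42 retinoid and lipid droplet genes lay in a long run of either direction.

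Gene lists used in the study were counted the same way, 5 in all. Of 162 fibrogenic genes of myofibroblastic stellate cells, the number of symbols used here, 5 (3.09%) overlapped a long gained run, namely ADAMTS12, AXL, COL5A2, FOSL1 and HK2, and 5 a long lost run, namely ASIC3, CAV3, FBLN2, LMOD1 and TNC. Of 127 matched genes of myofibroblast identity, 8 (6.30%) overlapped a long gained run, namely DAB2, DNMBP, FOXL1, NR2F2, NRP1, NT5E, PDGFC and PTX3, and 4 (3.15%) a long lost run, namely COL4A2, LOXL1, TNC and TRAM2. DAB2 had, besides, a long lost run within 50 kb of its 5′ end. Of 148 genes of heart, kidney and lung fibrosis, GREM1 was in a gained run and CPA3, FBLN2 and LOXL1 in lost ones. Of 61 genes of liver fibrosis, DAB2 was in a gained run and COL4A2 in a lost one. Of 71 genes of the liver fibrosis matrisome, COL5A2 was in a gained run and COL4A2, FBLN2 and TNC in lost ones. When counted by a 5′ end within 50 kb of a run, myofibroblast identity gave 10 genes for gained and 8 for lost runs. By that measure fibrogenic genes gave 4 and 7, and the matrisome 1 and 6. Liver fibrosis gave 1 and 3, and heart, kidney and lung fibrosis 1 and 4. Long genes overlap a run more readily than short ones. The lists were matched neither for length nor for acetylation in LX-2.

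The limit of 5 regions cut through a continuous distribution. Just below it, 48 runs of 4 regions held 192 regions, with a median span of 32.9 kb, a median coverage of 20.5% and 27.6% TSS-proximal regions. Just above it, the 31 runs of 5 regions held 155 regions, with 47.9 kb, 22.5% and 23.2%. Among the runs just outside were those over FGF2 and VEGFC, which encode growth factors, SPRY4, an inhibitor of receptor tyrosine kinase signalling, NFE2L2, which encodes NRF2, BAX with FTL, FTH1, and TFAP2A. A run of 4 regions in DST lay 113.3 kb from the run of 8, and one in EXT1 lay 74.4 kb from the run of 5, so that both genes held 2 runs.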

How the data were processed

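Per the labels and the methods, H3K27ac ChIP-seq was done on formaldehyde-crosslinked LX-2 cells with 4 libraries per arm and 2 inputs per arm, 1 for replicates 1 to 3 and 1 for replicate 4. The authors used Chromap for mapping to hg38 and called peaks per library against input with MACS2 2.1.1.20160309, cut them into bins of typically 2000 bp and tested bins between the arms with MAnorm2. They deposited 2 lists of region coordinates, lost and gained, with no score, signal or count. The adjusted p threshold is 0.15 in the names of the lists and 0.05 in the methods text, and which applied is not given in the sources used here. The values behind each call were not analysed here, so that no replicate, depth or test could be used. The column purified chromatin data were not used here.

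Both lists were joined, 11 lost regions on other sequences were left out, and runs were formed with Python 3.11.15, numpy 2.4.6 and pandas 2.3.3. Positions came from GENCODE 44 gene models (62663 genes, 20033 protein-coding) and sequences from hg38 and RefSeq tables (GRCh38.p14). Wilson intervals at 95% came from scipy 1.17.1, and figures from matplotlib 3.10.9. The run-finding step was checked on simulated lists. Runs of 8 or more regions, the 3 with the largest covered share and the 3 widest were described in most detail. The members, gene lists and motifs were chosen with earlier results of these data known. Alternatives were another distance limit, another number of regions per run, joining of abutting regions, other TSS windows and gene sets, and the central 1000 bp for motifs. For the contractile and growth factor lists, the genes in long lost runs are not reported here.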

Additional observations from a re-analysis of the deposited data

How the results depend on the processing

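No paired analysis was possible because each list is a single result over all 8 libraries, and for the same reason no library could be left out. What makes a long run depends most on how abutting regions are counted. With abutting regions joined into 288 blocks, 27 runs with 154 blocks remained of 5 or more, the longest with 8 blocks (ADAMTS12), and with regions within 1000 bp joined, 23 runs with 128. A minimum of 4 regions gave 117 runs, and a minimum of 7 gave 28 runs with 261 regions. A limit of 25 kb gave 48 runs with 324 regions, 100 kb gave 90 with 648, edge-to-edge distances 71 with 488, and skipping a single lost region 70 with 483. The TSS-proximal share of 29.2% became 20.2% with a window of 1000 bp, 39.3% with 5000 bp, 14.5% with protein-coding genes alone and 43.1% with the starts of all transcripts. The share in a gene body fell from 82.1% to 63.4% with protein-coding genes alone. GC content and CpG ratio stayed within their spread under each alternative run. Of 27 motif shares under alternatives, 12 moved, 6 down in the central 1000 bp and 6 up with abutting regions joined. Depth and signal are unknown, so that neither a region near the threshold nor one missing from a run could be told from the others.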

Other observations

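Under the count of blocks, the runs that still held 5 or more were those over RND3, LINC02612, LINC00973, VEPH1 (both runs), PDGFC, ADAMTS12, DST, LINC-PINT, ZFPM2-AS1, LURAP1L, DDIT4, LIPA, DNMBP, FOSL1, DDX10, PPFIBP1, PHLDA1, E2F7, NR2F2, FOXL1, SPIRE1, MAP2K7, PVR, BCL2L1, BACH1 and MIR222HG. The runs over PXN and TRAF3IP1, with 8 and 10 regions, fell to 2 and 4 blocks, and MIRLET7BHG, with 7 regions, to 3. At a limit of 25 kb, the LINC-PINT run kept 19 of its 20 regions and spanned 73.1 kb.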
